A study of Mus musculus with 6 samples.

Results

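The genes described here encode the mitochondrial respiratory chain and ATP synthase. They were chosen by name, as the rows of the deposited count table named Ndufa, Ndufb, Ndufc, Ndufs or Ndufv with a number, Sdha to Sdhd, Uqcr, Cox4 to Cox8, Atp5 or mt-, together with Cyc1, which gave 95 of 15454 rows. Of these genes, 82 are nuclear and 13 are encoded by mitochondrial DNA. The name rule also took in Atp5s and Atp5sl, which carry the name of the synthase but are not subunits of it. RNA came from the livers of male C57BL/6 mice of 8 to 10 weeks after warm ischemia of 75% of the liver, which the study's methods give as 1 h of ischemia with 6 h of reperfusion. The I/R group received vehicle (n = 3) and the I/R+Rk2 group received ginsenoside Rk2 (n = 3), a saponin from ginseng, both 2 days before surgery and again as blood flow returned. Both groups were injured, sham-operated livers were not analysed here, and the question was how Rk2 changed the transcriptome of the injured liver. Each library held between 16809613 and 35618074 counts.

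The respiratory chain passes electrons from NADH (complex I) or succinate (complex II) through ubiquinone to complex III, through cytochrome c to complex IV and so to oxygen, and complexes I, III and IV pump protons across the inner mitochondrial membrane. ATP synthase (complex V) lets the protons back and makes ATP. Complex II is wholly nuclear-encoded, whereas the other complexes also hold subunits that are transcribed from mitochondrial DNA inside the organelle. In an ischemic liver the chain stops for lack of oxygen, and it restarts abruptly when blood returns.

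Nuclear genes of the chain were higher in the livers of Rk2-treated mice, and the mitochondrially encoded genes were not. Among the 79 nuclear genes with enough counts to test, 68 were higher in I/R+Rk2 at an adjusted p below 0.05 in edgeR's quasi-likelihood test with Benjamini-Hochberg adjustment, and 0 were lower. Across all 12411 genes tested, 20.3% were higher and 23.7% were lower in the same edgeR test. DESeq2 likewise gave 68 higher and 0 lower among the nuclear genes. The shares of all genes that DESeq2 called are not given here. All 79 nuclear fold changes were positive, from 0.10 for Ndufv1 to 0.99 for Cox7a1 on the log2 scale, with a median of 0.49 beside -0.01 for all genes tested. With library size alone as the scaling 76 of the 79 were positive. The 13 mitochondrially encoded genes had a median log2 fold change of -0.11, and of these genes 0 were higher and 1, mt-Atp6, was lower. Single livers moved that median, to -0.20, -0.01 and -0.02 when I/R replicate 1, 2 or 3 was left out and to -0.04 when the first treated replicate was. At an unadjusted p below 0.05 the mitochondrially encoded genes still gave 0 higher and 3 lower, and DESeq2 gave 0 higher and 1 lower. The shares of all genes at that unadjusted p are not given here either.

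The rises were small. Of the 92 tested genes 0 passed a fold change of 2 in either direction at an adjusted p below 0.05. Of all genes 3.17% were higher by more than 2-fold at that threshold, and the share lower by more than 2-fold is not given here. DESeq2 and an unadjusted p below 0.05 likewise gave 0 of the 92, and the shares of all genes for these are not given here. In 71 of the nuclear genes every I/R+Rk2 liver lay above every I/R liver, and over all genes 27.1% separated in this direction. Of the mitochondrially encoded genes 2 separated the other way, beside 30.3% of all genes. The 3 genes that could not be tested are alternative isoforms of complex IV described below.

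**Figure D1:**
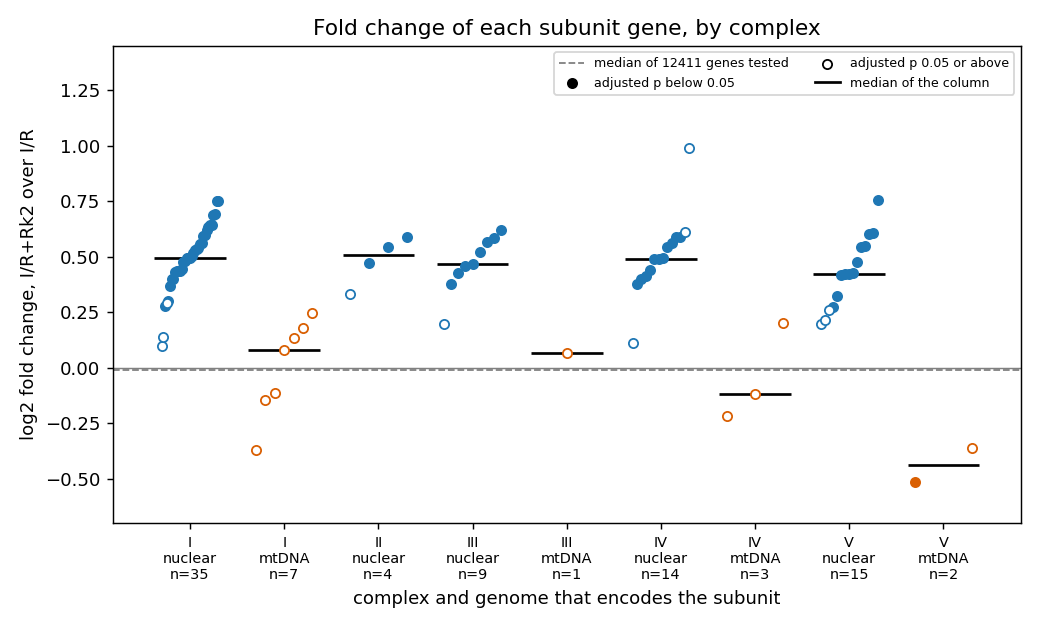
Log2 fold change of I/R+Rk2 over I/R (vertical axis) for each tested subunit gene, in columns by complex and by the genome that encodes it; filled points have an adjusted p below 0.05, bars are column medians, and the dashed line is the median of 12411 genes. The nuclear columns have medians from 0.42 to 0.51, and the mitochondrial DNA (mtDNA) columns lie around or below 0; Atp5s and Atp5sl are left out.

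The promoters of the nuclear genes of the set were searched for short motifs, as a description only. Any part of the motifs in the rises was not tested. RefSeq (GRCm38.p6) promoters were found for 65 of the 82 nuclear genes, as 70 windows of the 250 bases before the start. The letters GCGCATGC, a core of the site of nuclear respiratory factor 1, stood on either strand in 8 of the 70 windows (11.4%), beside 4.05% of the windows of tested genes and 2.26% of all 32851 windows. CCGGAAGT, a GABP core, stood in 3 windows (4.29% against 5.49% of tested genes and 2.88% of all), and GGGCGG, an SP1 core, in 22 (31.4% against 55.7% and 32.7%). TCAAGGTCA, an ERR site, and AAGATGGC, a YY1 core, each stood in 1 window (1.43%), beside 0.278% and 1.87% of tested genes and 0.387% and 1.56% of all. These are matches of letters, not sites shown to be bound. The sequences below are, for each complex with one, the window of the higher gene with the smallest p that holds the GCGCATGC letters outside the annotated gene, 5′ to 3′ on the strand of the gene, with capitals where either strand matches. In Ndufa11 and Cox6a1 matches on both strands overlap into a run of 10 capitals.
Ndufa11 (complex I, chr17:56717512-56717761, plus strand): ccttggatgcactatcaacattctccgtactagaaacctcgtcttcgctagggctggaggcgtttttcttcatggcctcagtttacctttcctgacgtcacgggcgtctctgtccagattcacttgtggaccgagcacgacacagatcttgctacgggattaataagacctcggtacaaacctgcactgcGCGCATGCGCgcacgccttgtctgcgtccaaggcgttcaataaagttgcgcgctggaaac
Cox6a1 (complex IV, chr5:115348982-115349208, minus strand): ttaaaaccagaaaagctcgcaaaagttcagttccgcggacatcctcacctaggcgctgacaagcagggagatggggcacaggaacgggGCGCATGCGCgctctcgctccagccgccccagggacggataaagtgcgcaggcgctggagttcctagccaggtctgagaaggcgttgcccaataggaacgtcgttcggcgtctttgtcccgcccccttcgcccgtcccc
Atp5l (complex V, chr9:44920743-44920992, minus strand): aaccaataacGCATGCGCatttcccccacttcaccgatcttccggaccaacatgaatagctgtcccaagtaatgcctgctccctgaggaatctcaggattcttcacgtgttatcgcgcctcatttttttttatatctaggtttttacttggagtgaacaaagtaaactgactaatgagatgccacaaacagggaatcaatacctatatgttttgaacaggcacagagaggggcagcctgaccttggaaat

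Complex I takes electrons from NADH and is the largest of the complexes. Of its 35 nuclear genes 32 were higher, with a median log2 fold change of 0.50. Its core subunits do its chemistry, and accessory subunits surround them. Ndufa6, an accessory subunit, had the largest rise of the complex. Its normalised counts, as counts per 1000000 (CPM) after TMM scaling of library size, were 70.6, 71.7 and 80.5 in I/R and 118, 134 and 123 in I/R+Rk2, so that the groups did not overlap. Its log2 fold change was 0.75 ± 0.09 (SE), with an adjusted p of 0.00126.

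Ndufc1 and Ndufa11, accessory subunits of the membrane arm, had log2 fold changes of 0.69 ± 0.09 (adjusted p 0.00124) and 0.64 ± 0.08 (adjusted p 0.00108). Ndufa11, whose promoter is printed above, held 26.4, 26.1 and 25.6 CPM in I/R against 41.2, 40.8 and 40.0 CPM in I/R+Rk2, with no overlap. It shares exon positions with Vmac on the other strand. Among the core subunits, several of which carry the flavin or an iron-sulfur cluster, Ndufs8 rose by 0.60 ± 0.09 and Ndufs7 by 0.56 ± 0.08. Ndufs3 rose by 0.56 ± 0.09 and Ndufv2 by 0.53 ± 0.08. Ndufs1 had a smaller rise, of 0.28 ± 0.10 (adjusted p 0.0486). The call of Ndufs1 was lost without I/R replicate 1 or 3 or without any of the I/R+Rk2 replicates (adjusted p 0.0595 to 0.154).

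Ndufv1, the NADH-binding core subunit, did not pass. Its 3 I/R livers had 96.5, 97.7 and 92.8 CPM and its I/R+Rk2 livers 109, 99.9 and 98.7 CPM, and the log2 fold change was 0.10 ± 0.08 (adjusted p 0.340), which turned to -0.06 with library size alone. The treated livers lay above the others by a narrow margin. The accessory subunits Ndufa12 (0.29, adjusted p 0.129) and Ndufb10 (0.14, adjusted p 0.268) did not pass either. Ndufa12 passed without I/R+Rk2 replicate 2 (0.44, adjusted p 0.0196), and Ndufb10 turned to -0.02 with library size alone.

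Complex II, succinate dehydrogenase, also belongs to the citrate cycle. All of its 4 genes separated the groups, and 3 of them passed, with a median log2 fold change of 0.51. Sdhb, the iron-sulfur subunit, had 120, 151 and 139 CPM in I/R against 178, 230 and 211 CPM in I/R+Rk2, with a log2 fold change of 0.59 ± 0.13 (adjusted p 0.00968). The membrane anchors Sdhd and Sdhc rose by 0.55 ± 0.10 and 0.47 ± 0.10. Sdha, the flavoprotein that oxidises succinate, had 318, 375 and 345 CPM in I/R against 380, 494 and 435 CPM in I/R+Rk2. It did not overlap between groups but missed the threshold, at 0.33 ± 0.12 (adjusted p 0.0585), which it passed without I/R+Rk2 replicate 1 (0.42, adjusted p 0.0288).

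Complex III hands electrons from ubiquinol to cytochrome c. Of its 9 nuclear genes 8 were higher, with a median log2 fold change of 0.47. Its catalytic subunits rose, Uqcrfs1 (the Rieske iron-sulfur protein) by 0.52 ± 0.09 (adjusted p 0.00331) and Cyc1 (cytochrome c1) by 0.43 ± 0.11 (adjusted p 0.0195). Cyc1 did not pass without I/R replicate 3 (adjusted p 0.0706) or I/R+Rk2 replicate 2 (adjusted p 0.0719). The core proteins Uqcrc1 and Uqcrc2 rose by 0.38 ± 0.09 and 0.47 ± 0.10. Uqcrb, a small ubiquinone-binding subunit, had 77.6, 75.4 and 81.8 CPM in I/R against 115, 130 and 116 CPM in I/R+Rk2, for a log2 fold change of 0.62 ± 0.09 (adjusted p 0.00187). Uqcrq, another small subunit, rose by 0.57 ± 0.08. Uqcrh, the hinge protein, overlapped between groups, with 78.3, 120 and 75.2 CPM in I/R against 96.6, 112 and 105 CPM in I/R+Rk2. The second I/R liver held the highest value of the 6, and the log2 fold change was 0.20 ± 0.18 (adjusted p 0.412). Without that liver Uqcrh passed, at 0.45 (adjusted p 0.0194).

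Complex IV, cytochrome c oxidase, reduces oxygen to water. Its nuclear subunits of the kind that liver uses moved within a narrow band. All 11 of them were higher, with log2 fold changes from 0.38 for Cox7a2 to 0.59 for Cox7c. Cox7c held 61.7, 63.7 and 63.4 CPM in I/R against 91.8, 99.0 and 93.5 CPM in I/R+Rk2, well apart, with a log2 fold change of 0.59 ± 0.08 (adjusted p 0.00141). Cox6a1, also printed above, rose by 0.54 ± 0.09 (adjusted p 0.00296) and Cox5b by 0.49 ± 0.08 (adjusted p 0.00349). Cox4i1, which takes part in regulation of the enzyme by ATP, had 141, 181 and 182 CPM in I/R against 223, 218 and 230 CPM in I/R+Rk2, and Cox5a rose by 0.44 ± 0.10. The log2 fold change of Cox4i1 was 0.41 ± 0.12 (adjusted p 0.0242), and it no longer passed when any single I/R+Rk2 replicate was left out (adjusted p 0.0538 to 0.0632). Cox5a did not pass without I/R replicate 3 (0.38, adjusted p 0.0553). Cox6b1 rose by 0.40 ± 0.09, Cox8a by 0.50 ± 0.09 and Ndufa4, once assigned to complex I, by 0.49 ± 0.10. Cox6c was the only one of the 11 whose groups overlapped.

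The other isoforms of complex IV were scarce. Cox7a1, the form of heart and skeletal muscle, had the largest log2 fold change of the set, 0.99 ± 0.36, with 0.626, 0.781 and 0.598 CPM in I/R against 1.34, 1.78 and 0.798 CPM in I/R+Rk2. The third treated liver lay close to the I/R livers, and the gene missed the threshold (adjusted p 0.0590), which it passed without that liver (1.23, adjusted p 0.0286). Ndufa4l2, a hypoxia-induced relative of Ndufa4, stood at 0.417, 0.898 and 0.757 CPM in I/R against 1.26, 0.977 and 0.983 CPM in I/R+Rk2 (log2 fold change 0.61 ± 0.35, adjusted p 0.191). Cox6b2, a form known from testis, was not tested, with counts of 0, 2 and 0 in I/R and 0, 14 and 3 in I/R+Rk2. Cox4i2 and Cox8b had 2 counts each, in the third I/R liver alone, and Cox6a2, Cox7b2 and Cox8c appeared only in the FPKM table (fragments per kilobase of transcript and 1000000 fragments), listed at 0 in all 6 livers. Cox7a2l, which joins complexes III and IV into supercomplexes, had a log2 fold change of 0.11 ± 0.09 (adjusted p 0.346), which turned to -0.05 with library size alone.

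Complex V was higher in 12 of its 15 nuclear genes, with a median log2 fold change of 0.42. Its parts differed in count, as all 4 peripheral stalk subunits (median 0.51) and all 3 genes of the c ring (median 0.42) were higher but only 3 of 5 subunits of the F1 head and central stalk (median 0.32). The difference between parts was not tested. Atp5j, a peripheral stalk subunit, had 57.0, 53.3 and 69.5 CPM in I/R against 99.6, 111 and 92.7 CPM in I/R+Rk2. Its groups were well apart, at a log2 fold change of 0.76 ± 0.13 (adjusted p 0.00356), and it shares exon positions with Gabpa on the other strand, whose own value was -0.36. Atp5h, also of the stalk, rose by 0.54 ± 0.09 (adjusted p 0.00367).

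The c ring turns as protons pass, and its protein is made from 3 genes that differ in their import signals. Atp5g1 rose by 0.55 ± 0.09 (adjusted p 0.00414), Atp5g2 by 0.42 ± 0.08 and Atp5g3 by 0.42 ± 0.10, the last not passing without I/R+Rk2 replicate 2 (adjusted p 0.0521). In the catalytic head the alpha and beta subunits did not pass. Atp5b, the catalytic beta subunit and the most abundant nuclear gene of the set per length, had 738, 927 and 772 CPM in I/R against 941, 978 and 873 CPM in I/R+Rk2. These values overlapped, and the log2 fold change was 0.20 ± 0.12 (adjusted p 0.204). Atp5a1, the alpha subunit, overlapped as well, with 600.2, 745 and 651 CPM in I/R against 722, 856 and 816 in the treated livers, and had a log2 fold change of 0.26 ± 0.12 (adjusted p 0.107). Atp5j2, a membrane subunit, was at 0.22 (adjusted p 0.353), and Atp5l, the membrane subunit whose promoter is printed above, rose by 0.61 ± 0.12. Atp5s, a coupling factor, and Atp5sl, an assembly factor of complex I, were both higher, by 0.60 ± 0.20 (adjusted p 0.0450) and 0.43 ± 0.12 (adjusted p 0.0246), but passed in 5 and 9 of 20 alternatives. Leaving out any single liver other than I/R+Rk2 replicate 3 ended the call of Atp5s (adjusted p 0.0766 to 0.122), and leaving out I/R replicate 2 or 3 or I/R+Rk2 replicate 2 or 3 ended that of Atp5sl (adjusted p 0.0612 to 0.0823).

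The median of the genes of a complex, taken liver by liver, separated the groups in each complex. On log2(CPM + 0.5), relative to the mean of the I/R livers, the nuclear genes of complex I had medians of -0.06, 0.03 and 0.03 in I/R and 0.45, 0.55 and 0.46 in I/R+Rk2. Those of complex V had -0.10, 0.06 and 0.04 in I/R and 0.39, 0.48 and 0.40 in I/R+Rk2. The mitochondrially encoded genes had -0.24, 0.21 and 0.04 in I/R and -0.18, -0.06 and 0.04 in I/R+Rk2, so that their groups overlapped.

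**Figure D2:**
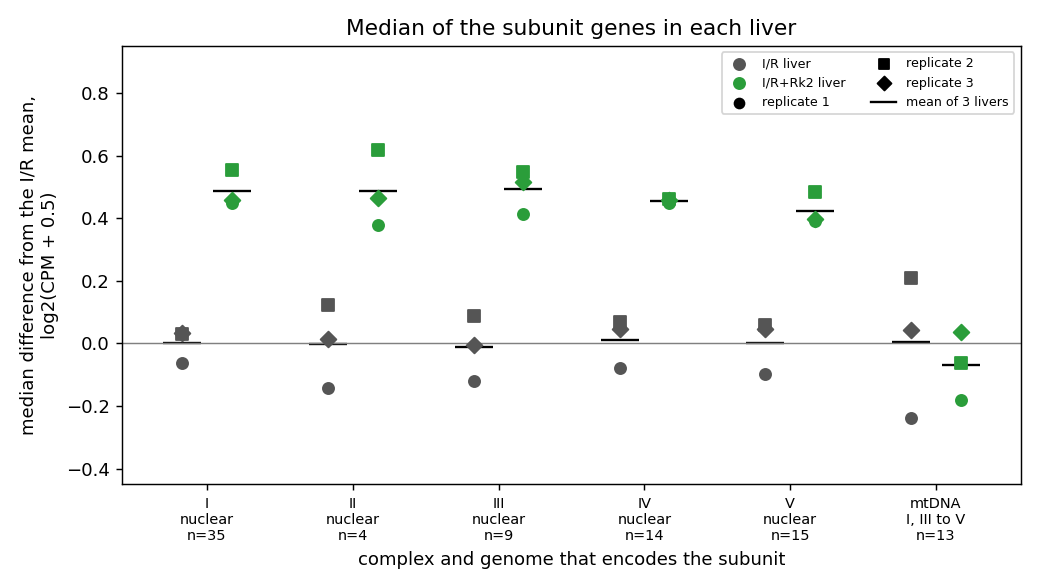
Median over genes of log2(CPM + 0.5) minus the I/R mean (vertical axis), for the nuclear genes of each complex and for the 13 mtDNA genes, with 1 point per liver and bars at the mean of 3 livers. In complexes I to V every I/R+Rk2 liver lies above every I/R liver, and the mtDNA medians of both groups overlap.

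The 13 mitochondrially encoded genes are the hydrophobic core of complexes I, III, IV and V. Only protein-coding rows were in the table, so ribosomal and transfer RNA of the organelle were not analysed here. Per length they were far more abundant than the nuclear genes, with mean FPKM in I/R from 993 for mt-Nd5 to 23698 for mt-Co1, against at most 439 for a nuclear gene, Atp5b. mt-Co1 encodes the subunit of complex IV where oxygen is reduced, and alone held 3.90% ± 0.416 of all counts in I/R and 4.03% ± 0.431 in I/R+Rk2 (SD, n = 3). Its log2 fold change was 0.20 ± 0.19 (adjusted p 0.413).

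The lowest fold change belonged to mt-Atp6, the membrane subunit of complex V through which protons reach the c ring. It had 2399.7, 3253 and 2850.2 CPM in I/R against 1789, 1908 and 2261 CPM in I/R+Rk2, without overlap. Its log2 fold change was -0.51 ± 0.15 (adjusted p 0.0296). That call was lost when I/R replicate 2 or 3 or I/R+Rk2 replicate 1 or 2 was left out, with adjusted p-values from 0.0756 to 0.0917 and log2 fold changes from -0.51 to -0.40. mt-Atp8, which lies on the same messenger RNA and shares positions with mt-Atp6, had 995, 1459 and 1249.97 CPM in I/R against 890.2, 959 and 1039 CPM in I/R+Rk2 (log2 fold change -0.36 ± 0.15, adjusted p 0.0924). Of the I/R livers 1, replicate 1, lay below the highest treated liver, and without it mt-Atp8 passed (-0.48, adjusted p 0.0336).

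Of the complex I genes in mitochondrial DNA, mt-Nd3 had the lowest fold change. It stood at 537, 534 and 743 CPM in I/R against 421, 462 and 521 CPM in I/R+Rk2, separate but not past the threshold (-0.37 ± 0.16, adjusted p 0.0935). mt-Nd4l had the highest, 0.25 ± 0.16 (adjusted p 0.258), and mt-Nd2, mt-Nd1 and mt-Nd4 were at 0.18, 0.14 and 0.08. mt-Nd5 and mt-Nd6 were at -0.14 and -0.11, and these rows lie on opposite strands with shared positions. For complex IV, mt-Co2 was at -0.12 and mt-Co3 at -0.21, and mt-Cytb, the cytochrome b of complex III, was at 0.07. None of these passed, and their adjusted p-values lay between 0.258 and 0.746. With library size alone mt-Nd1, mt-Nd4 and mt-Cytb turned to -0.02, -0.07 and -0.09.

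**Figure D3:**
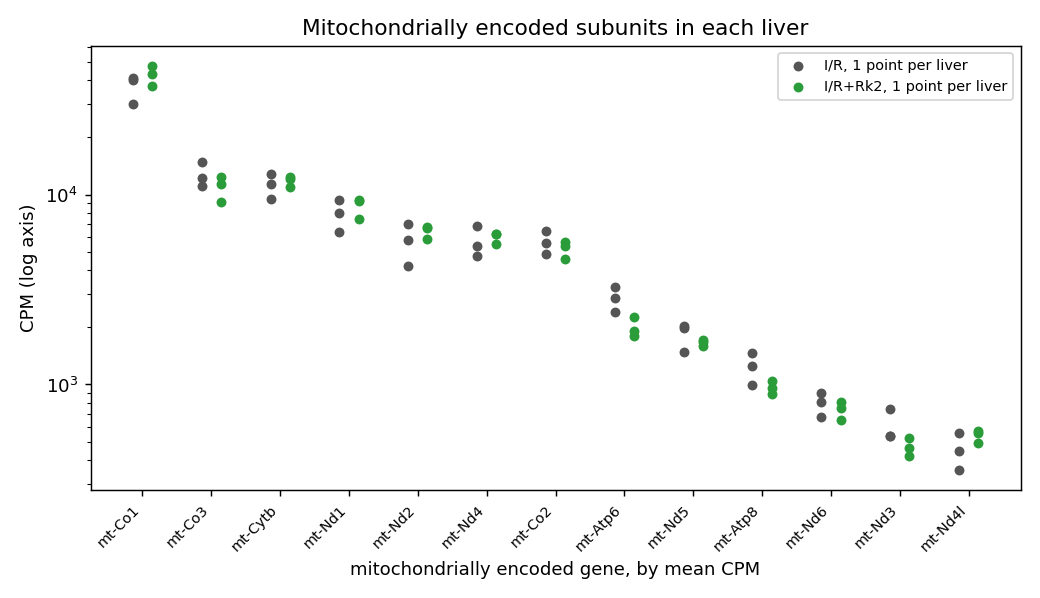
CPM (vertical axis, log scale) of each mitochondrially encoded gene in each liver, with 1 point per liver and I/R at the left of each pair. The groups overlap for 11 of 13 genes and are separate for mt-Atp6 and mt-Nd3, where I/R+Rk2 is lower.

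The balance between the genomes differed between groups. Nuclear genes of the set held 0.881%, 0.897% and 0.843% of the counts in I/R livers and 1.05%, 1.10% and 1.004% in I/R+Rk2 livers, without overlap. Mitochondrially encoded genes held 8.82%, 10.7% and 10.0% in I/R and 8.46%, 9.96% and 9.35% in I/R+Rk2, with overlap. Counts of mitochondrially encoded genes were 10.0, 11.9 and 11.9 times those of nuclear genes in I/R and 8.08, 9.05 and 9.32 times in I/R+Rk2 (means 11.3 ± 1.10 and 8.82 ± 0.651, SD, n = 3). Every treated liver had a lower ratio than every I/R liver. This ratio does not depend on how the libraries were scaled, and the difference between nuclear and mitochondrially encoded genes was not tested gene by gene.

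Transcript length mattered for this set, because short transcripts were higher overall. The nuclear genes are short, with a median annotated length of 683 bases against 2130.5 bases for all genes tested. Across all genes Spearman's rho between log2 fold change and length was -0.19, and within the 79 nuclear genes it was -0.08. With the length implied by the ratio of count to FPKM it was -0.25 and -0.22. These are descriptions across genes, which are not independent replicates.

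The nuclear genes of the chain were set beside all genes of like length, class by class. The share and median of each class include the genes of the set that fall in it. Under 600 bases 25 of 28 were higher beside 28.9% of all genes of that class, and their median log2 fold change was 0.49 beside 0.19. From 600 to under 1000 bases 28 of 31 were higher beside 28.5%, with medians of 0.49 and 0.18. From 1000 to under 1500 bases 12 of 14 were higher beside 27.9%, with medians of 0.53 and 0.16. The longer classes held few of them, with 2 of 4 higher from 1500 to under 2500 bases (21.7% of the class) and 1 of 2 from 2500 to under 4000 bases (14.6% of the class). The mitochondrially encoded genes, 8 of them under 1000 bases, gave 0 higher in any class. In classes of implied length the class shares were larger. Under 600 bases 26 of 28 nuclear genes were higher beside 42.1% of the 228 genes of the class, with medians of 0.51 and 0.34. From 600 to under 1000 bases 23 of 27 were higher beside 33%, with medians of 0.50 and 0.25, and from 1000 to under 1500 bases 13 of 15 beside 29.8%, with medians of 0.52 and 0.22. The longer classes gave 4 of 6 beside 24.2% (1500 to under 2500 bases) and 2 of 3 beside 16.1% (2500 to under 4000 bases).

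**Figure D4:**
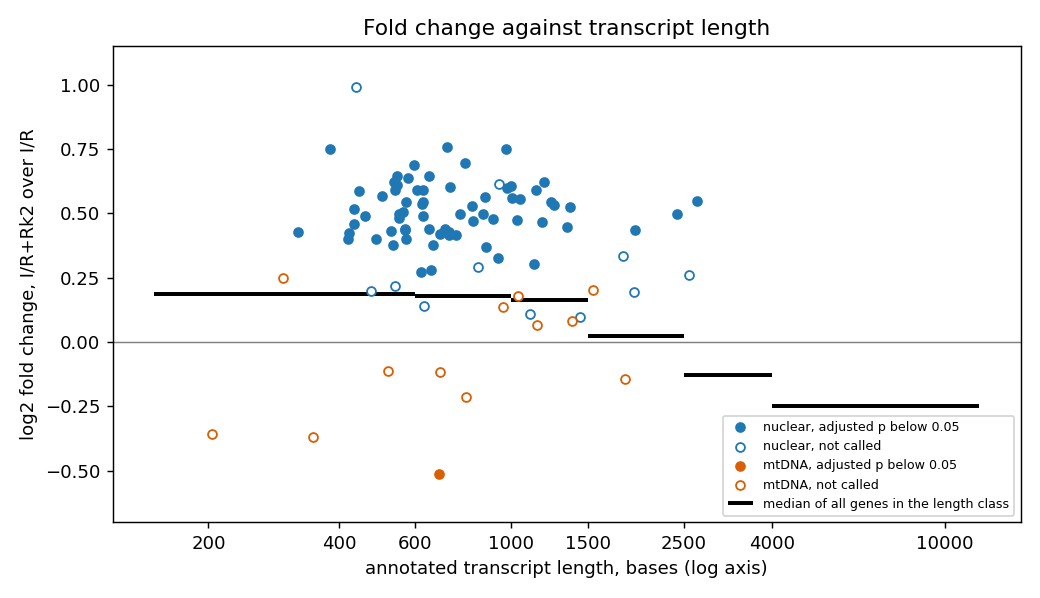
Log2 fold change of I/R+Rk2 over I/R (vertical axis) against annotated transcript length (horizontal axis, log scale) for the 79 nuclear and 13 mtDNA genes, with filled points for an adjusted p below 0.05 and black bars for the median of all genes in each length class. Under 1500 bases the class medians lie from 0.16 to 0.19, and 70 of 73 nuclear genes lie above the median of their class.

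Taking the trend with length out of each library before the test lowered the median of the nuclear genes. With annotated lengths 57 nuclear genes were higher, beside 20.2% of the 12361 genes with a length, 78 of 79 values were positive, and their median was 0.37. Ndufs1, Cyc1, Uqcrc1 and Cox4i1 no longer passed, at 0.15, 0.30, 0.25 and 0.29 (adjusted p 0.0552 to 0.238), whereas mt-Nd3 and mt-Atp8 passed as lower, at -0.50 and -0.50. For mt-Atp8 the length used was that of its own annotated gene, not of the messenger RNA that it shares with mt-Atp6. Another version used the implied length, since annotated and implied length differed by more than 1.5 times for 11 of the nuclear genes. It left 33 nuclear genes higher, beside 19.2% of 12179 genes, with a median of 0.25 and 74 of 79 values above 0. The 33 were 17 of complex I, 4 of complex II, 5 of complex III, 3 of complex IV and 4 of complex V. In these versions 3 and 4 mitochondrially encoded genes were lower, and the shares of all genes lower in them are not given here. Sdha passed in the version with implied length.

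Scaling by library size alone left 40 nuclear genes higher, beside 10.6% of all genes. It moved the median of all genes from -0.01 to -0.17 and the split of all calls from 2516 higher and 2938 lower to 1320 and 3481. The TMM factors were 1.01 to 1.14 in I/R and 0.914 to 0.975 in I/R+Rk2. A change of scaling moves all genes by nearly the same amount, so it can hardly change a distance from the median of all genes. With either scaling that distance was 0.50 for the nuclear median and -0.10 for that of the mitochondrially encoded genes. Under every one of the 20 alternative settings 27 nuclear genes were higher, 14 of them in complex I, 3 in complex II, 4 in complex III, 3 in complex IV and 3 in complex V. The share of all genes that were higher under every setting is not given here.

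Another group of short transcripts served as a comparison. The genes of the cytosolic ribosome, with a median length of 704 bases, were higher in 12 and lower in 1 of 80, beside 20.3% and 23.7% of all genes. Their median log2 fold change of 0.11 became -0.03 and -0.15 with the trends in annotated and implied length removed. The mitochondrial ribosome, which translates the mitochondrially encoded subunits, was higher in 42 of 78 genes, beside the same 20.3%, and had 71 positive values. Its median of 0.36 became 0.28 and 0.21. With library size alone 16 of these 78 and 1 of the 80 were higher, beside 10.6% of all genes, at medians of 0.20 and -0.06.

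**Figure D5:**
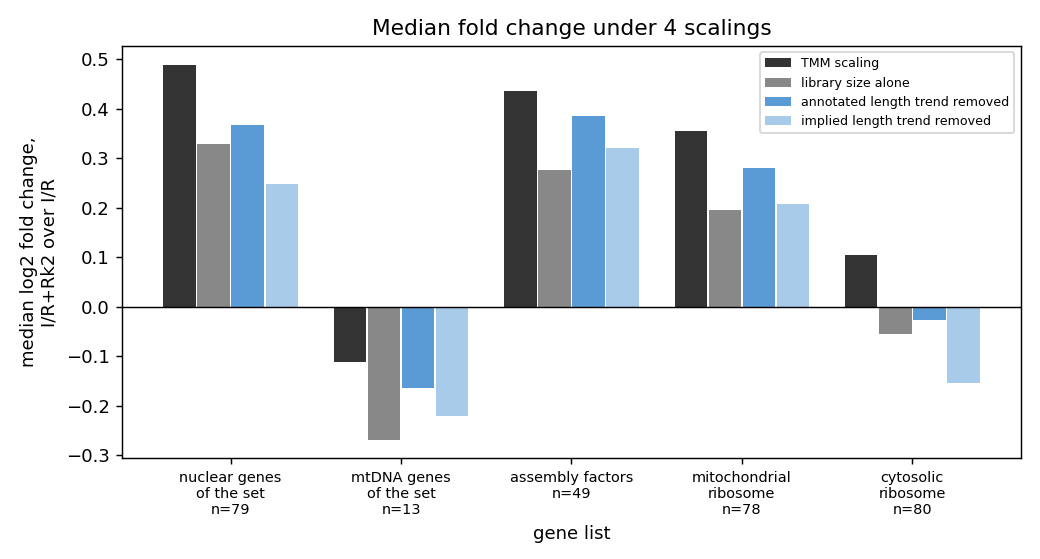
Median log2 fold change of I/R+Rk2 over I/R (vertical axis) for 5 gene lists under TMM scaling, library size alone, and removal of the trend in annotated or implied length. The nuclear genes of the set stay above 0 in all 4 (0.25 to 0.49), and the cytosolic ribosome changes sign between TMM scaling (0.11) and the other 3.

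Genes that work with the chain moved to different degrees. Of 49 assembly factors, the proteins that build the complexes without staying in them, 27 were higher, beside 20.3% of all genes, and the other 22 did not pass. The 49 had 44 positive values and a median of 0.44. With library size alone 14 were higher, beside 10.6% of all genes, and the median was 0.28. Tmem70, needed to assemble ATP synthase, had the largest rise (1.35, adjusted p 2.4e-04), followed by Sco2, a copper chaperone of complex IV (1.25, adjusted p 0.0168), which did not pass without I/R+Rk2 replicate 2 (1.04, adjusted p 0.0614). All 4 assembly factors of complex II had positive values, and Sdhaf1, Sdhaf3 and Sdhaf4 rose by 0.93, 0.81 and 0.94. Of 7 subunits and partners that the name rule missed 6 were higher, beside the same 20.3%. Among them were the mobile electron carrier Cycs (0.29 ± 0.09, adjusted p 0.0334) and the carrier protein Ndufab1 of complex I (0.54). Cycs did not pass with library size alone (0.13, adjusted p 0.417) or without any single liver other than I/R+Rk2 replicate 3 (adjusted p 0.0595 to 0.113). With library size alone 3 of the 7 were higher, beside 10.6% of all genes. Higd1a was the seventh, at 0.28 (adjusted p 0.0728). In the citrate cycle and pyruvate dehydrogenase 7 of 17 genes were higher, beside 20.3% of all genes, and Fh1, fumarase, fell by 0.55. The count of higher genes became 1 with library size alone, and 5 and 4 with the trends in annotated and implied length removed. The shares of all genes were 10.6%, 20.2% and 19.2%.

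Of 15 genes that copy and transcribe mitochondrial DNA, 4 were higher, beside 20.3% of all genes, and the other 11 did not pass, with 9 positive values and a median of 0.08. Polrmt, the polymerase that makes the mitochondrially encoded transcripts, was at -0.06 (adjusted p 0.717), and Tfam, which packs that DNA and starts its transcription, was at 0.26 (adjusted p 0.0999). Without I/R+Rk2 replicate 1 Tfam passed (0.33, adjusted p 0.0389). Of 10 regulators known to act on mitochondrial genes 2 were higher and 2 lower, beside 20.3% and 23.7% of all genes. Esrra, an orphan nuclear receptor, rose by 0.58 and the corepressor Nrip1 by 0.67. Pprc1, a coactivator, fell by 1.37 and Gabpb1, a partner of Gabpa, by 0.81. Nrip1 did not pass with library size alone (0.51, adjusted p 0.132) or without I/R replicate 2 or 3 or I/R+Rk2 replicate 1 or 2 (adjusted p 0.0776 to 0.112), nor Pprc1 without I/R replicate 1 or 3 or I/R+Rk2 replicate 3 (adjusted p 0.0505 to 0.0605). Ppargc1a, the coactivator PGC-1alpha, was at -0.59 (adjusted p 0.128) and Nrf1 at -0.56 (adjusted p 0.117), which passed without I/R replicate 2 (-0.81, adjusted p 0.0118).

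Where the genes lie was taken from GENCODE M21 on the build of the deposited data, mm10. Ndufa6 is at chr15:82350140-82354322, Sdhb at chr4:140961203-140979193, Uqcrb at chr13:66900617-66905378, Cox7c at chr13:86044816-86046904 and Atp5j at chr16:84827866-84835625. mt-Atp6 occupies positions 7927 to 8607 of the mitochondrial genome. The tables hold 1 value per gene and library, so no exon, intron or untranslated part was measured alone.

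Reads of some genes may be hard to tell from those of others. Near-identical copies, at least 95% identical over at least 50% of the transcript, were searched for among the GENCODE M21 transcripts of other genes. Copies outside that annotation were not searched for. They were found for 15 genes of the set, 7 nuclear and 8 mitochondrially encoded, and for 3 of these genes (Atp5h, Atp5l and mt-Nd5) the copy has its own row. Exon positions are shared with another gene for 36 genes of the set, and the strand setting of the counting is not given in the sources used here. The 51 tested nuclear genes with neither property gave 42 higher, all 51 with positive values, and a median log2 fold change of 0.50. The 5 mitochondrially encoded genes without an annotated near-identical copy had a median of 0.07 and the 8 with one had -0.13.

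Markers of several cell types were set beside all genes, of which 20.3% were higher and 23.7% lower. All 6 monocyte markers were lower in I/R+Rk2, with a summed level of 159 to 183 CPM in I/R against 4.83 to 10.0 CPM in I/R+Rk2, and 7 of 8 neutrophil markers were lower (467 to 593 CPM against 88.4 to 207 CPM). Of 10 hepatocyte markers 5 were higher and 2 lower (median 0.33), and they summed to 75078 to 85443 CPM in I/R against 104717 to 126455 CPM in I/R+Rk2. Among them Ttr and Alb rose by 1.06 and 0.70, whereas Fgb fell by 0.62 and Hnf4a fell by 0.52. Alb did not pass without I/R replicate 1 or I/R+Rk2 replicate 2 or 3 (adjusted p 0.0612 to 0.0632). Of 5 Kupffer cell markers 1 was lower, close to the share of all genes (43.6 to 70.6 CPM against 32.5 to 42.4 CPM). Of 5 endothelial markers 2 were higher and 2 lower (109 to 115 CPM against 110 to 137 CPM). Of the striated muscle markers Ckm, Myh4 and Tnnt3 were at 0 in every liver and Acta1 was lower (-1.04), though not without I/R replicate 3 or I/R+Rk2 replicate 2 (adjusted p 0.0672 for each). Mylpf, which had too few counts to test, was at 0, 0.312 and 0.239 CPM in I/R against 0.252, 1.10 and 0.430 CPM in I/R+Rk2. Its highest level, like that of the muscle form Cox7a1, was in the second treated liver. Acta1 was highest in the third I/R liver, with 3.49, 3.63 and 4.11 CPM in I/R against 2.48, 1.69 and 1.23 CPM in I/R+Rk2. The part of these cells in the values of the chain was not tested, and in whole liver a change in the number of cells of a type and a change of RNA per cell cannot be told apart.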

How the data were processed

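Per the labels, total RNA (250 ng per liver) was made into libraries with an MGI kit, and per the submitters' processing notes the reads were checked with FastQC 0.11.5, aligned to mm10 with HISAT2 2.2.1 and quantified with StringTie 1.3.3. The annotation and the strand setting are not given in the sources used here. The authors deposited whole-number counts per gene, whose summed column equals the row totals, and FPKM values, which are the counts per kilobase of transcript and 1000000 fragments as StringTie gives them. Both tables were used as deposited.

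Counts were tested in R 4.3.3 with edgeR 4.0.16 (filterByExpr, TMM, quasi-likelihood F test), I/R+Rk2 against I/R, with 6 libraries and no covariates. Benjamini-Hochberg adjustment ran over the 12411 genes kept, and a gene was called at an adjusted p below 0.05, with a fold change above 2 counted beside it. SE is the log2 fold change over the square root of F. The labels give 3 numbered livers per group and do not say that each came from another animal, so p-values measure the spread between these samples. The pipeline was tested on simulated data.

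For length, the deviation of each library from the mean log2 CPM was smoothed against log2 transcript length and used as an offset. Annotated length is that of GENCODE M21, and implied length is the deposited count over FPKM, for counts of at least 20. Alternatives were DESeq2 1.42.0, limma 3.58.1 on log2(FPKM + 1), other scalings and filters, a replicate block and each library left out. Same-numbered livers did not deviate together (correlations from -0.0579 to 0.00522). At the lowest and highest depth 3 counts stand for 0.178 and 0.0842 CPM, and such limits cover counting error only.

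The genes, the lists and the tests were chosen with earlier results of these data known. Genes were named as catalytic or defining subunits, isoform sets, the 3 members of each complex with the smallest p, members called in the rarer direction, and the extremes of fold change. A gene that this rule names is not reported here. Some further members and the genes of the other lists were named after their values were seen.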

Additional observations from a re-analysis of the deposited data

How the results depend on the processing

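Over 1602 values recomputed under 20 alternatives for the genes named here, 1370 kept their direction and their side of the threshold, 148 kept their direction and fell below it, 36 kept it and rose past it, and 48 changed sign, none of them past the threshold. The sign changes were in 12 genes. With library size alone Cox7a2l, Ndufb10, Ndufv1, mt-Cytb, mt-Nd1 and mt-Nd4 were at -0.0465, -0.0195, -0.0622, -0.0882, -0.0184 and -0.0749. In limma (on log2(FPKM + 1), on log2(FPKM + 0.1) and without a filter on FPKM) Cox7a2l was at -0.0460, -0.0468 and -0.0460, Ndufv1 at -0.0417, -0.0421 and -0.0417, mt-Cytb at -0.0829 in all 3, mt-Nd1 at -0.0135 in all 3, mt-Nd4 at -0.0645 in all 3, Tfam at -0.00232, -0.00223 and -0.00232, and Polrmt at 0.150, 0.168 and 0.150. With the trend in annotated length removed Cox7a2l, mt-Cytb, mt-Nd4 and Polrmt were at -0.0198, -0.0605, -0.00724 and 0.106, and with a replicate block as well Cox7a2l, mt-Cytb and Polrmt were at -0.0161, -0.0502 and 0.101. With the trend in implied length removed Atp5j2, Cox7a2l, Ndufb10, Ndufv1 and Uqcrh were at -0.00941, -0.0875, -0.130, -0.0762 and -0.100, and mt-Cytb, mt-Nd1, mt-Nd2, mt-Nd4 and mt-Nd4l at -0.121, -0.0821, -0.0268, -0.0699 and -0.112. With single libraries left out, mt-Cytb ranged from -0.0347 to 0.179 and mt-Nd4 from -0.0200 to 0.239, both lowest without I/R replicate 1, and Polrmt ranged from -0.139 to 0.0216. The count of higher genes, 68, became 40 with library size alone, 45, 43 and 39 in limma (in the same order) and 33 with the trend in implied length removed. The shares of all genes called in limma are not given here. The count of lower genes, 1, became 3 with library size alone, 0 with mitochondrially encoded rows left out, 3, 3 and 2 in limma, 3 and 4 with the trend in annotated and implied length removed, and 0 to 2 with a library left out. The median of all genes of the set, 0.46, became 0.303 with library size alone, 0.281, 0.285 and 0.278 in limma, and 0.344 and 0.226 with the length trends removed.

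By complex, library size alone gave medians of 0.340, 0.352, 0.311, 0.333 and 0.262 for complexes I to V. In limma complex I was at 0.332, 0.335 and 0.332, complex II at 0.333, 0.337 and 0.333, complex III at 0.296, 0.298 and 0.296, complex IV at 0.339, 0.340 and 0.271, and complex V at 0.335, 0.337 and 0.335. Without the trend in annotated length complexes I to V were at 0.379, 0.386, 0.344, 0.368 and 0.296. Without that in implied length they were at 0.248, 0.406, 0.259, 0.193 and 0.160. The replicate numbers share no more than a number: with a replicate block 66 genes were higher and 2 lower (median 0.46), and with the block and the annotated length trend removed 3 were lower, the median was 0.346, and complexes I, III, IV and V were at 0.383, 0.348, 0.371 and 0.296. The causes were not tested. Each value rests on 3 livers per group, and isoforms with a few counts per library were not measurable at this depth.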
